A study of Drosophila melanogaster with 9 samples.

Results

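Small RNA sequencing of dissected testes and of dissected ovaries from the Drosophila melanogaster laboratory strain Canton-S was compared, with 1 library for each organ out of 9 samples in the series. The flies were adults of 3 to 5 days kept at 25 °C, with no mutation or treatment given in the labels, and total RNA was taken with Trizol. All 465 mature microRNAs of the deposited table were followed, each taken once; 281 had at least 1 read in testes and 186 in ovaries. The carcass of the same strain and the gonads of a second strain, Z56, with 1 library each, are given only beside these values. The labels do not say how many flies were pooled, or what sex the carcass came from. With 1 library a side there is no replicate and no test: the intervals below are 95% intervals that cover counting error only, not the spread between flies, dissections or library preparations. Reads of the testis library had been trimmed, masked and collapsed beforehand, per the series text. Any such processing that the ovary library did not share cannot be told apart from organ. The gonads are mixtures of germ cells, somatic cells and muscle sheath, and in such bulk samples fewer cells of a type and less microRNA per cell cannot be told apart.

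A microRNA gene is transcribed into a hairpin precursor, from which an arm on the 5′ side (5p) and an arm on the 3′ side (3p) are cut. One of them is usually kept in an Argonaute protein, where its seed, the stretch near the 5′ end, pairs with messenger RNAs and lowers their output. Neighbouring hairpins are often cut from 1 shared transcript. In flies the ovary depends on microRNAs for germline stem cells and for the follicle cells that surround the egg chamber, while the testis is known for clusters of young, fast-evolving microRNA genes that are little used elsewhere.

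The testis library held 1394265 microRNA reads and the ovary library 398044, so that 3 reads, the limit that a count of 0 allows, stood for 2.15 reads per 1000000 (RPM) in testes and 7.54 RPM in ovaries. The ovary profile was the more concentrated one. A single microRNA, miR-184-3p, made up 39.3% of ovary reads (95% Clopper-Pearson interval 39.1% to 39.4%), and the 10 most abundant together made up 84.8%. In testes the first place was held by miR-1-3p, with 18.3% (18.2% to 18.3%), and the first 10 made up 78.1%. In all, 50% of the reads came from 2 microRNAs in ovaries and from 4 in testes, and 90% from 16 and from 22. More microRNAs were seen in testes also at equal depth: drawn down to the ovary total, the testis library would be expected to show 239.5 of the 465, against the 186 seen in ovaries. There were 180 microRNAs with reads in both organs, 101 with reads in testes alone and 6 with reads in ovaries alone.

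Ratios were taken for the 142 microRNAs with at least 50 RPM in at least one of the organs, which is 70 reads in testes or 20 in ovaries. A microRNA was called higher or lower at a ratio of 4-fold or more whose interval left out 1. By this rule 57 of 142, or 40.1%, were higher in testes and 14, or 9.86%, were lower, while 71 lay within 4-fold. The median over all 142 was 0.90 on the log2 scale, with a count of 0 set at 3 reads, which turns the ratio into a bound. The other 323 microRNAs were too rare for a ratio; 178 of them had no read in either organ. Since a microRNA could enter through the organ where it is high, the counts describe the abundant microRNAs and not all 465.

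**Figure D1:**
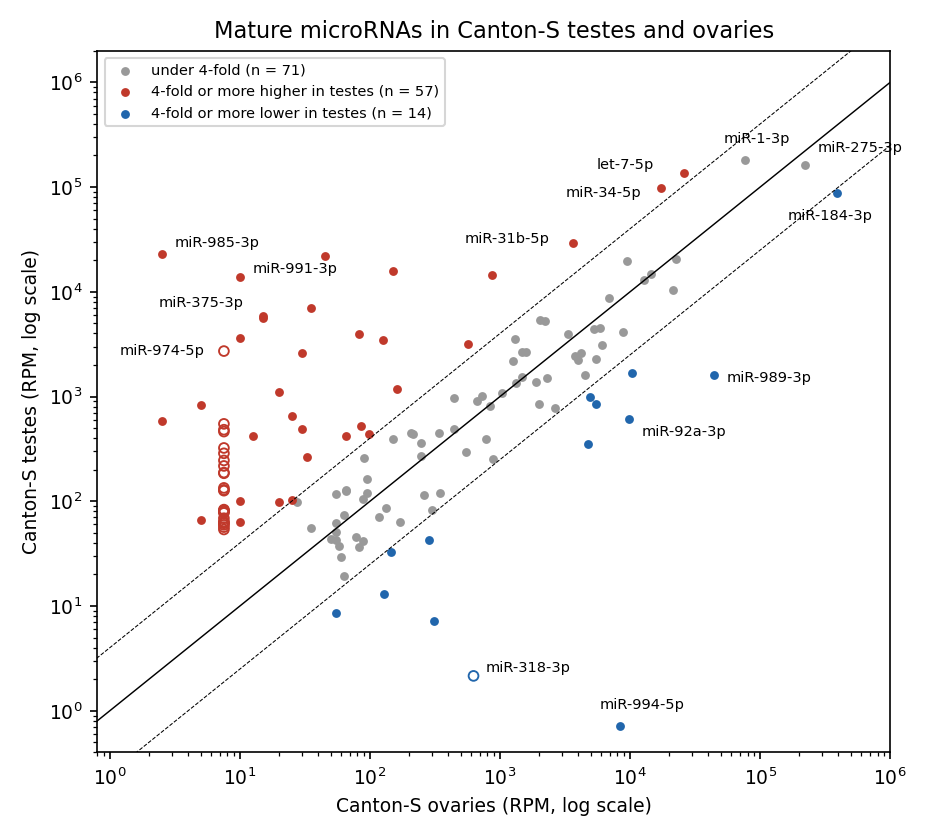
RPM in Canton-S ovaries (x axis) and testes (y axis), both on log scales, for the 142 microRNAs with at least 50 RPM in one organ; open circles had 0 reads in one organ and are drawn at 3 reads, the solid line marks equality and the dashed lines a 4-fold difference. The 57 microRNAs higher in testes reach ratios far from the diagonal at the left, while miR-994-5p and miR-318-3p stand alone at the lower edge.

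A total of 4 groups of neighbouring microRNA genes, together with the lone gene miR-985, accounted for 38 of the 57 microRNAs higher in testes. Their 38 called arms made up 11.0% of testis reads and 0.0570% of ovary reads. These are clusters of the young, testis-associated kind. No tested arm of these lists was within 4-fold or lower, while 40.1% were called higher among all 142. These rates cannot show an enrichment, because the lists were redrawn after the files were seen and chosen with earlier results known. Most of these arms were also under 50 RPM in ovaries and so passed the minimum through testes alone. Any of them with 0 ovary reads was then bound to be called higher. One of the groups, miR-991, miR-992 and miR-2498, was taken apart from miR-310 to miR-313, which lie within 10000 bases of it; that whole neighbourhood had 12 tested arms, of which 5 were higher and 1 lower.

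The most abundant testis-biased microRNA of this kind was miR-985-3p. It had 32221 reads in testes, or 23110 RPM, and 1 read in ovaries, or 2.51 RPM. That is a ratio of 9199, with a counting interval of 1651 to 363339 because of the single ovary read. No other microRNA gene lies within 10000 bases of miR-985 in the RefSeq annotation of assembly release 6, so it is not treated here as a member of the miR-982 cluster that its number follows.

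The cluster of miR-303, miR-982, both copies of miR-983, and miR-984 made up 3.27% of testis reads (3.24% to 3.30%) and 0.00904% of ovary reads (0.00633% to 0.0125%). All 6 tested arms were higher in testes, with a median of 5.87 on the log2 scale. miR-982-5p led with 30376 reads in testes (21786 RPM) against 18 in ovaries (45.2 RPM), a ratio of 482 (305 to 813). miR-984-5p had 9824 reads against 14, a ratio of 200.3 (119 to 367), and miR-983-5p had 4995 against 4, a ratio of 357 (139 to 1309). The copies of miR-983 share their mature microRNAs in the table, so the reads cannot be assigned to one of them. The weaker arms miR-303-5p, miR-983-3p and miR-984-3p, with 79 to 179 testis reads, had none in ovaries.

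The 6 hairpins miR-959 to miR-964 form another cluster. It made up 3.49% of testis reads (3.46% to 3.52%) and 0.0467% of ovary reads (0.0403% to 0.0540%). All 12 arms were called higher in testes, at a median of 5.68. miR-964-5p was the most abundant, with 22198 reads in testes (15921 RPM) and 60 in ovaries (150.7 RPM), a ratio of 106 (82.0 to 138). The bias was uneven along the cluster. miR-959-3p had 7848 reads against 6, a ratio of 373 (171 to 1018), whereas miR-962-5p had 4818 against 50, a ratio of 27.5 (20.8 to 37.1). miR-960-3p lay between them with 5495 against 33, a ratio of 47.5 (33.8 to 69.1). The counting intervals of miR-959-3p and miR-962-5p are far apart, so the spread among hairpins of this cluster is larger than the counting error. Arms of 1 hairpin could differ as well: miR-963-5p had 815 reads against 1, a ratio of 233 (41.6 to 9201), and miR-963-3p had 680 against 12, a ratio of 16.2 (9.20 to 31.5). The last pair was named after its values were seen. In Z56 miR-963-5p had 883 testis reads and 1 ovary read, and miR-963-3p had 38 and 0. These counts are too few to show whether the arms differ there.

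The miR-972 to miR-979 cluster, in which the annotation also places miR-2499, miR-4966 and miR-9369, was sparser and the one most nearly absent from ovaries. Its 22 arms had 7862 reads in testes, 0.564% of the library (0.551% to 0.576%), and 2 in ovaries, both from miR-978-5p. All 22 arms were seen in testes, and all 15 that passed the 50 RPM minimum were called higher, each against 0 ovary reads. A count of 0 was set at 3 reads, or 7.54 RPM in ovaries. An arm with at least 50 RPM in testes then always exceeds the 4-fold limit. The 15 calls thus follow from the minimum and add nothing to the ovary counts of 0. miR-974-5p, with 3786 reads or 2715 RPM in testes, was at least 360-fold higher there. miR-975-5p (764 reads) was at least 72.7-fold, miR-977-3p (672 reads) at least 63.9-fold and miR-4966-3p (450 reads) at least 42.8-fold higher. The 7 arms under the minimum had 1 to 51 testis reads; among them miR-973-5p had 51 and miR-2499-3p 41, and both had none in ovaries.

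miR-991, miR-992 and miR-2498 are the last of these groups, and they lie next to the miR-310 to miR-313 hairpins. miR-991-3p had 19253 reads in testes (13809 RPM) and 4 in ovaries, a ratio of 1374 (537 to 5044). The other 3 tested arms, miR-991-5p, miR-2498-5p and miR-2498-3p, had 111 to 176 testis reads and none in ovaries, which puts them at least 10.6-fold to 16.7-fold higher. miR-992 was scarce, with 36 reads of its 5p and 9 of its 3p arm in testes.

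The adjoining miR-310 to miR-313 cluster was shared more evenly between the Canton-S gonads. Its 8 arms summed to 3.31% of testis reads (3.28% to 3.34%) and 3.59% of ovary reads (3.53% to 3.65%), a ratio of 0.921 (0.904 to 0.938), beside 44.8 RPM in carcass. miR-312-3p carried most of this, with 28929 reads in testes (20749 RPM) and 9044 in ovaries (22721 RPM). Within the cluster 1 arm was called in each direction. miR-312-5p, the minor arm of that hairpin, had 3206 RPM in testes against 570 in ovaries, a ratio of 5.62 (4.92 to 6.45). miR-313-3p had 12.9 RPM against 128, from 18 and 51 reads, and so was 9.92-fold lower in testes (interval 5.70 to 18.1). The other 6 arms lay within 4-fold, from miR-310-3p (2295 against 5452 RPM) to miR-311-5p (2687 against 1465 RPM). These hairpins resemble each other closely, and a read that fits more than 1 of them may have been counted at each.

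**Figure D2:**
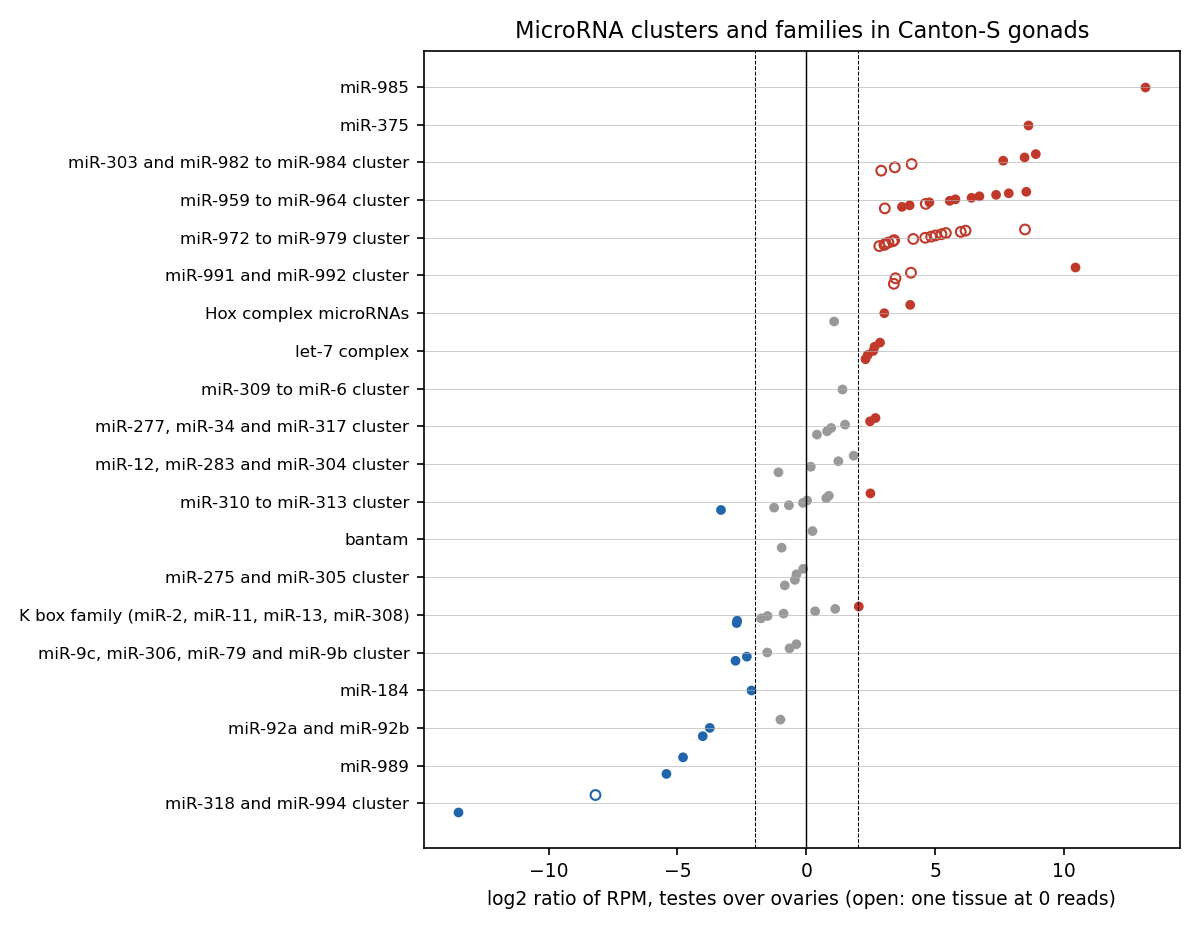
Log2 ratio of RPM in testes over ovaries for every tested arm of each named cluster, family or gene, ordered by median; red is 4-fold or more higher in testes, blue 4-fold or more lower, grey within 4-fold, and open circles had 0 reads in one organ, drawn at 3 reads. All arms of the upper 6 rows lie beyond 4-fold, while the miR-310 to miR-313 row is centred near 0.

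A second set of microRNAs higher in testes had wide use outside the gonads. All 5 tested arms of the let-7 complex, whose hairpins let-7, miR-100 and miR-125 act in developmental timing, were called higher, beside 40.1% of all 142, at a median of 2.60 on the log2 scale. let-7-5p had 189466 reads in testes, 13.6% of the library, and 10357 in ovaries, 2.60%, a ratio of 5.22 (5.12 to 5.33). miR-125-5p had 1170 RPM against 161, a ratio of 7.28 (5.67 to 9.49). miR-34-5p, studied in flies for its part in the ageing brain, had 9.68% of testis and 1.74% of ovary reads, a ratio of 5.57 (5.43 to 5.70). When miR-184-3p was left out of the totals, 6 calls no longer reached 4-fold while the direction stayed: let-7-5p (3.48-fold), miR-34-5p (3.71-fold), miR-100-3p (3.28-fold), miR-312-5p (3.75-fold), miR-252-5p (2.98-fold) and miR-2c-3p (2.74-fold). The let-7 complex then had 3 of 5 arms called.

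The neighbours of miR-34 differed in their bias in these libraries. miR-277-5p, from a hairpin that controls amino acid breakdown, had 421 RPM against 65.3 and was called, while miR-317-3p had 2205 against 1259 RPM and was not. None of the 3 tested 3p arms of this cluster was called, including miR-277-3p with 358 testis and 36 ovary reads. From the Hox gene complexes, miR-10-3p had 14301 RPM in testes and 872 in ovaries, a ratio of 16.4 (14.8 to 18.3), and its 5p arm 267 against 32.7. miR-iab-4-5p, from the other Hox complex, had 117 RPM against 55.3 and was not called. miR-31b-5p had 29279 RPM against 3615, a ratio of 8.10 (7.68 to 8.54), and its relative miR-31a-5p 19787 against 9537 RPM, within 4-fold.

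miR-375-3p, known in mammals from the endocrine pancreas, stood apart in this set. It had 8275 reads in testes (5935 RPM) and 6 in ovaries (15.1 RPM), a ratio of 394 (181 to 1073). miR-958-5p had 645 reads in testes and none in ovaries, at least 61.4-fold higher. Outside the lists, and named after their values were seen, were miR-274-5p (422 against 12.6 RPM), miR-987-5p (139 against 4 reads) and miR-252-5p (438 against 98.0 RPM, one of the calls lost without miR-184-3p). Inside them, and likewise named later, was miR-9a-5p, a regulator of sensory organ precursors in flies, with 645 against 25.1 RPM.

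The carcass separated these sets. Of the 57 microRNAs higher in testes than in ovaries, 40 were also 4-fold or more higher in testes than in carcass, 15 lay within 4-fold of it and 2, miR-987-5p and miR-277-5p, were 4-fold or more lower than in carcass. The 40 included all 38 arms of the testis clusters and of miR-985, together with miR-312-5p and miR-31b-5p. They made up 14.3% of testis reads, and the 15 shared with carcass made up 25.7%. let-7-5p had 84981 RPM in carcass, miR-34-5p 132292, miR-10-3p 18006 and miR-375-3p 1820, against 135890, 96838, 14301 and 5935 RPM in testes. miR-985-3p, by contrast, had 21.1 RPM in carcass against 23110 in testes.

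Over the 12 arms of the testis clusters and miR-985 with at least 1000 RPM in testes, the ratio of testes to carcass lay between 778 and 3038, with a median of 1037. The ratio of testes to ovaries over the same 12 arms lay between 27.5 and 9199, with miR-974-5p taken at its bound. Over these 12 arms the ratio to carcass thus spanned a narrower range than the ratio to ovaries. The ovary range rests on few reads, down to 1 for miR-985-3p and 0 for miR-974-5p. The ovary library also held 398044 reads against 12306695 of carcass. Among cluster arms under 1000 RPM with carcass reads, the ratio to carcass ran from 382 (miR-979-3p) to 6744 (miR-975-5p), so the narrow range holds only above that cut. Where the few carcass reads came from was not tested.

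**Figure D3:**
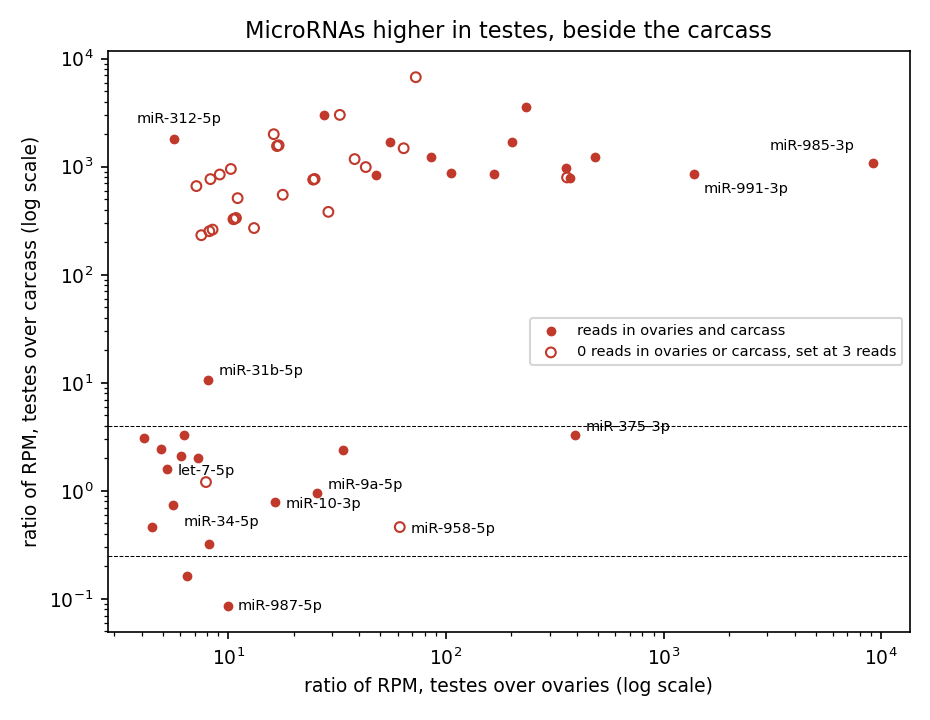
The 57 microRNAs higher in testes, by their ratio over ovaries (x axis) and over carcass (y axis), both as ratios of RPM on log scales; open circles had 0 reads in ovaries or carcass and are drawn at 3 reads, and dashed lines mark 4-fold over and under carcass. The arms of the testis clusters form a band high over carcass, and let-7-5p, miR-34-5p, miR-10-3p and miR-375-3p sit near the level of carcass.

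MicroRNAs higher in ovaries were fewer, and 2 hairpins led them. miR-994-5p had 3335 reads in ovaries (8378 RPM) and 1 in testes (0.717 RPM), which makes it 11682-fold lower in testes (interval 2095 to 461543). miR-318-3p, from the neighbouring hairpin and active in follicle cells, had 249 reads in ovaries (626 RPM) and none in testes, at least 291-fold lower. The minor arms stayed under the minimum for a ratio: 16 ovary reads of miR-994-3p, 3 of miR-318-5p and no testis read of either. In carcass all 4 arms together came to 0.731 RPM.

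miR-989, which acts in the follicle cells that migrate as border cells, was the fourth most abundant microRNA of ovaries. miR-989-3p had 17473 reads there (43897 RPM) and 2220 in testes (1592 RPM), a ratio of 27.6 (26.4 to 28.8) in favour of ovaries. miR-989-5p had 123 reads against 10, a ratio of 43.1 (22.6 to 92.1). Carcass had 1.30 RPM of the 3p arm. The same testis library held 1 read of miR-994-5p and none of miR-318-3p, and the Z56 testis library held 162 reads of miR-989-3p.

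miR-184-3p, which is required for egg production and for the female germ line, had 156268 reads in ovaries and 123417 in testes. At 392590 against 88518 RPM it was 4.44-fold lower in testes (4.40 to 4.47), yet still the fifth most abundant microRNA of testes and at 97848 RPM in carcass. Because it takes up so large a part of the ovary library, its share bears on every other ratio: leaving it out of both totals moved all log2 ratios by -0.59. Against the totals without it, 23 microRNAs were 4-fold or more lower in testes in place of 14, and 51 higher in place of 57.

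miR-92a-3p and miR-92b-3p, which have the same seed as the 3p arms of the miR-310 cluster, were both called lower in testes. miR-92a-3p had 9856 RPM in ovaries and 607 in testes, a ratio of 16.2 (15.1 to 17.5). miR-92b-3p had 4751 RPM and 354, a ratio of 13.4 (12.1 to 14.8). miR-92a-5p, the other tested arm, had 784 against 391 RPM and was not called. Neither 3p arm exceeded 21.4 RPM in carcass.

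The K box hairpins (miR-2, miR-11, miR-13 and miR-308), whose 3p arms share a seed and are known for restraining pro-apoptotic genes, had higher summed RPM in ovaries. Its arms made up 1.39% of ovary reads and 0.475% of testis reads. In Z56 the sum was higher in testes, at 6479 against 4560 RPM. Of 5 tested 3p arms 1 was called lower and 1 higher in testes, at a median of -1.50 against 0.90 over all 142, of which 9.86% were lower and 40.1% higher. With the 5p arms, which lack that seed, it was 2 lower and 1 higher of 8 tested at a median of -1.19, and without miR-184-3p in the totals 4 lower and none higher of 9. miR-13b-3p had 5487 RPM in ovaries and 843 in testes, 6.51-fold lower in testes (6.06 to 6.99). miR-2a-3p (4507 against 1591 RPM) and miR-2b-3p (2628 against 779 RPM) lay within 4-fold, but were 4.25-fold and 5.06-fold lower without miR-184-3p and were then called. By RPM both were higher in testes in Z56, where the tested microRNAs leaned to testes at a median of 1.44. The other call lower in testes, the 5p arm miR-308-5p, rested on 22 and 12 reads, and the call higher, lost without miR-184-3p, was miR-2c-3p, with 10 ovary and 144 testis reads. The latter 2 were named after their values were seen.

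In the cluster of miR-9c, miR-306, miR-79 and miR-9b all 5 tested arms had higher RPM in ovaries and 2 were called lower in testes, beside 9.86% of all 142; without miR-184-3p miR-9b-5p was called too (4.29-fold). miR-9c-5p had 4881 against 986 RPM (4.95-fold, 4.62 to 5.31) and miR-9c-3p 284 against 42.3 RPM (6.71-fold, 4.85 to 9.35). miR-79-3p, at 3786 against 2415 RPM, was within 4-fold. The remaining calls lower in testes were miR-276a-3p, a memory-related microRNA of the fly brain, with 10310 against 1682 RPM (6.13-fold, 5.83 to 6.45), and miR-995-5p with 58 and 46 reads.

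Other microRNAs with reported gonad functions lay within 4-fold. miR-275-3p, second in both organs, had 22.1% of ovary reads (21.9% to 22.2%) and 16.3% of testis reads (16.2% to 16.3%). bantam-3p, a growth-promoting microRNA that maintains female germline stem cells, had 6032 RPM in ovaries and 3110 in testes. The miR-309 to miR-6 cluster, which belongs to the early embryo, had 153 RPM in ovaries and 408 in testes, a ratio of 2.66 (2.04 to 3.53), nearly all from miR-5-5p with 60 and 551 reads. In Z56 this cluster had 731 RPM in ovaries and 761 in testes. Mirtrons, which are spliced out as short introns, had 21 of 23 listed arms seen in testes and 16 in ovaries, beside 281 and 186 of all 465. None of the 4 tested was called, beside 40.1% higher and 9.86% lower of all 142, and without miR-184-3p miR-1010-3p was called lower (5.44-fold). With miR-184-3p in the totals, miR-1010-3p had higher RPM in testes in Z56, from 236 testis and 88 ovary reads. Among microRNAs listed as having vertebrate relatives, 11 of 27 tested (40.7%) were called higher in testes, beside 46 of the other 115. Of the same 27, 5 were called lower, beside 9 of the other 115. Without miR-184-3p in the totals, 8 of 29 tested were higher and 6 lower.

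MicroRNAs of other tissues differed between the libraries. The muscle microRNA miR-1-3p had 182546 RPM in testes, 76331 in ovaries and 530976 in carcass, and miR-133-3p, also of muscle, had 34 reads (24.4 RPM) in testes and none in ovaries, where a count of 0 allows 7.54 RPM. The other arms of both, miR-1-5p and miR-133-5p, were at 0 in both gonads. Summed over the 4 arms, muscle microRNAs were 18.3% of testis reads and 7.63% of ovary reads, a ratio of 2.39 (2.36 to 2.42). The nervous system microRNAs miR-124 and miR-1000 together had 55.2 RPM in testes and 17.6 in ovaries, from 77 and 7 reads, a ratio of 3.14 (1.45 to 8.07), with miR-124-5p at 0 in both. The sum rested on miR-124-3p, with 69 testis and 4 ovary reads. miR-1000-5p had 7 and 3 reads, or 5.02 against 7.54 RPM, a ratio of 0.666 (0.152 to 3.99). The part of muscle or nerve in the results above was not tested.

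The arm kept from each hairpin was mostly the same in both gonads. Of 218 precursors with both arms listed, 59 had at least 50 reads of the 2 arms together in each organ. In 43 of them the share of 5p reads differed by less than 5 percentage points, and the major arm was the same in 53. In 10 the share differed by 10 points or more with separate Clopper-Pearson intervals, and in 9 of these the 5p share was higher in testes.

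For the mir-92a hairpin the 5p arm was 39.2% of 1392 reads in testes (36.6% to 41.8%) and 7.37% of 4235 in ovaries (6.60% to 8.20%). The 5p share of mir-276a was 39.2% in testes and 9.16% in ovaries, and that of mir-2a-2 was 37.7% and 8.93%. In mir-92a and mir-276a the 3p arm was thus much lower in testes, as above, while the 5p arm stayed within 4-fold. The deposited counts of miR-276a-5p and miR-276b-5p are the same, so these 5p reads may come from either hairpin. The 3p arm of mir-2a-2 is also that of mir-2a-1, which was listed with 2160 reads of it in testes beside 2218, and mir-2b-2 likewise shares its 3p arm with mir-2b-1, so the 5p shares of both rest on 3p reads that may belong to the other copy. The major arm differed in mir-14, a regulator of fat storage and cell death, with 63.7% 5p in testes (62.5% to 65.0%) and 40.8% in ovaries (38.3% to 43.3%). In mir-311, with 50.7% in testes (49.5% to 51.8%) and 26.0% in ovaries, and in mir-277, with 62.1% in testes and 41.9% in ovaries (29.5% to 55.2%), an interval held 50%, so a change of the major arm was within counting error. mir-8, a regulator of growth, had 37.9% and 22.9%. mir-312 had 13.4% and 2.45%, and mir-2b-2 14.3% and 3.53%. mir-988 went the other way, with 37.4% in testes and 54.1% in ovaries (46.6% to 61.6%, which also holds 50%).

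**Figure D4:**
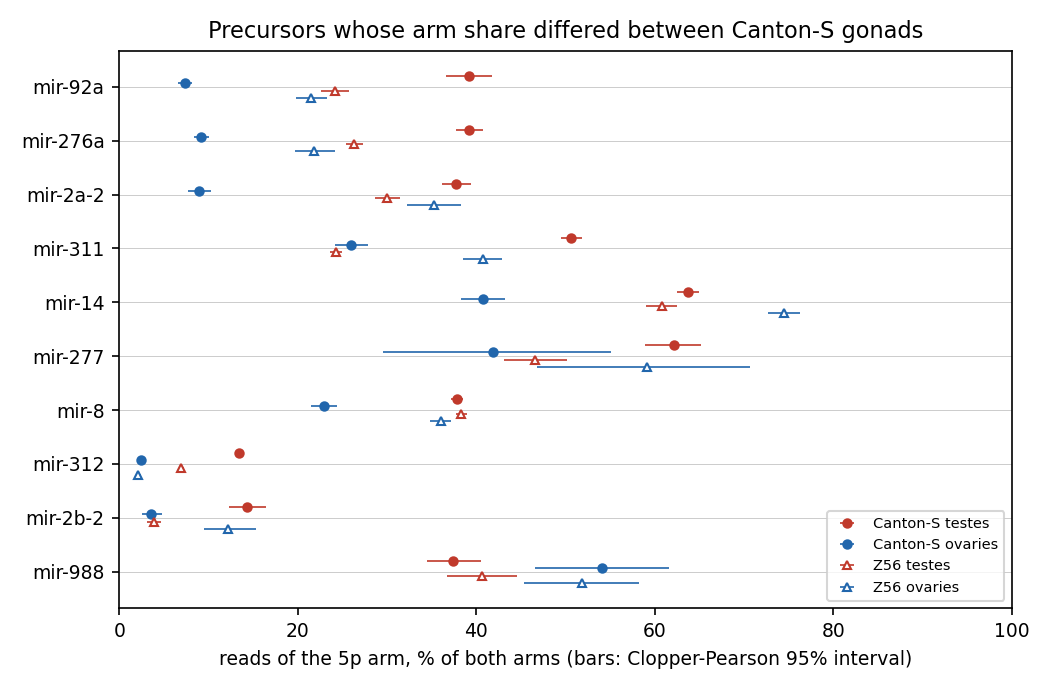
Share of 5p reads, in percent of both arms, for the 10 precursors whose share differed by 10 points or more between Canton-S testes (filled red) and ovaries (filled blue), with Z56 testes and ovaries as open triangles; bars are Clopper-Pearson 95% intervals. In Z56 the organs lie closer together than in Canton-S or in the opposite order for each of them.

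The second strain shares no library with this comparison and repeats it with 1 library a side. Of the 57 microRNAs higher in Canton-S testes, 50 were called higher in Z56 by the same rule, 55 had a Z56 ratio and all 55 pointed the same way. The 2 without a ratio were miR-958-3p and miR-979-5p, with at most 2 reads in the Z56 libraries. Of the 14 lower ones, 7 were called lower in Z56, 5 more pointed the same way and 2, miR-276a-3p and miR-313-3p, pointed the other way. Over the tested microRNAs with a Z56 ratio the median in Z56 was 1.44 on the log2 scale, so the ratios there leaned to testes. It was 0.50 with edgeR TMM factors and 0.68 with DESeq2 size factors. How far this lean bears on the agreement in either direction was not tested. Over the 112 tested microRNAs with reads in all 4 gonad libraries, the log2 ratios of the strains had a Pearson correlation of 0.904 and a Spearman correlation of 0.795 across microRNAs, which are not independent and are read from the same libraries.

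The size of the bias was less alike. miR-989-3p was 27.6-fold higher in ovaries in Canton-S and 623-fold in Z56. In ovaries miR-92a-3p exceeded its testis level 16.2-fold in Canton-S and 1.55-fold in Z56, and miR-13b-3p 6.51-fold and 1.99-fold. miR-310-3p, not called in Canton-S at a testis to ovary ratio of 0.421 (0.399 to 0.445), had a ratio of 12.1 in Z56, and was named here after its values were seen. Among the testis clusters, miR-991-3p was 1374-fold higher in Canton-S and 221-fold in Z56, miR-982-5p 482-fold and 79.3-fold, while miR-964-5p was 106-fold and 404-fold and miR-960-3p 47.5-fold and 211-fold. Differences of arm share carried over least: of the 10 precursors, all with at least 50 reads in each Z56 library, 5 differed in the same direction there and 1, mir-988, did so by 10 points or more. With 1 library per strain and organ these differences between strains were not tested.

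**Figure D5:**
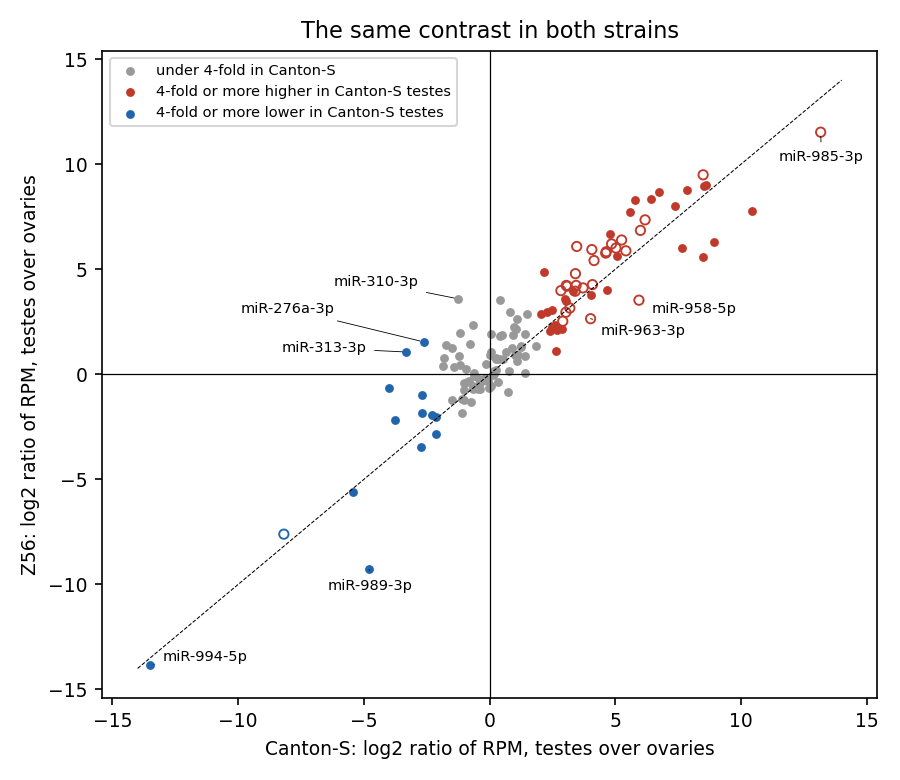
Log2 ratio of RPM in testes over ovaries in Canton-S (x axis) and Z56 (y axis) for the tested microRNAs with a ratio in both strains; open circles had 0 reads in at least one library and are drawn at 3 reads, and the dashed line marks equality. All red points lie above 0 in Z56, and 2 blue points, miR-276a-3p and miR-313-3p, do too.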

How the data were processed

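The authors deposited small RNA read counts per mature microRNA and precursor, and the same values as RPM, per the file headers; recomputing RPM from the column totals gave the deposited values within 0.005. Reads of Canton-S testes had been trimmed, masked and collapsed beforehand, per the series text. TopHat is named without a version in the submitters' processing notes; the sources used here do not give the mapper, counting tool, microRNA annotation or genome build of the small RNA counts. Carcass and Z56 counts were used only beside the comparison, and the RNA-seq table was not used.

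Where the 476 rows repeated a mature microRNA for several precursors (8 names), the highest count was kept, which left 465, and RPM was recomputed from the merged totals. Ratios carry exact conditional 95% intervals and shares Clopper-Pearson 95% intervals, and because reads copied by PCR are not separate molecules, these limits hold for counting error alone. A count of 0 was set at 3 reads. Calls needed 50 RPM in one library and 4-fold; arm shares needed 50 reads per library and 10 percentage points. Code was checked on simulated counts with Python 3.11.15 and scipy 1.17.1. Alternatives used edgeR 4.0.16 (TMM) and DESeq2 1.42.0 (size factors) in R 4.3.3. Neighbouring genes, up to 10000 bases apart, were taken from RefSeq (assembly release 6), where 255 of 256 precursors matched; cluster lists were redrawn from it after the files were seen, which moved miR-985 and miR-2499, except that miR-991, miR-992 and miR-2498 stayed apart from their neighbours miR-310 to miR-313. MicroRNAs were named if among the 12 most abundant of an organ, the 12 widest calls per direction, the 4 most abundant of a list or the 10 largest differences in arm share; any other was named after its values were seen. Close relatives (miR-31a and miR-31b, miR-92a and miR-92b, miR-2a and miR-2b, miR-9b and miR-9c) may share reads, and how such reads were split is not known. The members and lists were chosen with earlier results of these data known.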

Additional observations from a re-analysis of the deposited data

Results flagged for a closer look

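Among the 71 microRNAs and 10 arm shares called in Canton-S, 5 pointed the opposite way in Z56 with counting intervals that left out equality in both strains; the differences were not tested, since each strain has 1 library per organ. The ratio of testes over ovaries of miR-276a-3p was 0.163 in Canton-S and 2.91 in Z56. With Z56 totals rescaled it was 1.52 (TMM), 1.72 (size factors) and 1.72 (totals without miR-184-3p), so the opposite direction held under each. The 5p share in testes minus that in ovaries was 23.0 percentage points in Canton-S and -13.8 in Z56 for mir-14. It was 28.8 and -5.21 for mir-2a-2, 10.8 and -8.28 for mir-2b-2, and 24.7 and -16.4 for mir-311.
Called or not, 15 of the 142 tested microRNAs and 7 of the 59 tested precursors were opposite in this sense, miR-310-3p, bantam-3p, mir-305 and mir-310 among them. With rescaled totals 7 (TMM), 9 (size factors) and 8 (totals without miR-184-3p) of the 15 microRNAs remained opposite. The Z56 ratio of miR-310-3p was then 6.29, 7.12 and 7.11, while that of bantam-3p was 0.626, 0.709 and 0.707 and so no longer opposite. Arm shares do not depend on the totals.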

How the results depend on the processing

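The count of microRNAs higher in testes was 57 and stayed between 51 and 63 under other totals, minimums and ways of merging precursors; it was 69 at 2-fold and 37 at 10-fold. The count lower in testes was 14, and 23 with totals that leave out miR-184-3p, 22 with a minimum of 10 RPM or none, 30 at 2-fold and 6 at 10-fold. TMM and size factors moved the Canton-S ratios by 0.029 and 0.0012 on the log2 scale and kept all 71 calls. They moved the Z56 ratios by -0.94 and -0.76, and the calls found the same way in Z56 were then 50 and 52 in place of 57. Precursors with another arm share numbered 10, and 6 at 20 percentage points. Of 292 alternative values of 73 named ratios, 56 moved by more than the counting interval, and none of the called ratios changed direction. No paired analysis was possible because each organ has 1 library per strain. Depth limits rare microRNAs most in ovaries, where a count of 0 allows up to 7.54 RPM.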
